A study of Rattus norvegicus with 24 samples.

Results

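The ventral striatum of male Wistar rats was profiled after a low dose of MK-801 on 2 arrays of opposite dye, out of 24 arrays in the series. Both arrays set RNA from rats given 0.08 mg/kg MK-801 against RNA from rats given saline, and they were chosen by their title. Treated RNA was labelled with Cy5 on replicate 1 and with Cy3 on replicate 2. Values below are log2 ratios of treated over saline, with the sign of the swapped array turned. All injections were intraperitoneal, and brains were taken 40 min later. Also used here were the 2 ventral striatum arrays of the high dose (0.16 mg/kg MK-801 over saline) and the 10 low-dose arrays of the cortex, hippocampus, amygdala, hypothalamus and midbrain. The study used 9 rats, 3 of them given saline, each brain being dissected into all 6 regions. Sample labels give their age as 9 weeks and the design text as 10 weeks. How many rats made up an extract is not in the labels, nor is whether the swapped arrays repeat a single extract. Each pair was therefore counted as 1 replicate. The p-values below measure only the spread between regions of the same rats, part of which may be technical.

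MK-801 (dizocilpine) blocks the open channel of the NMDA receptor, a glutamate-gated cation channel that admits calcium on coincident synaptic input. Calcium entry through it is a classic trigger of immediate early genes, which are transcribed within minutes without new protein synthesis and mostly encode transcription factors and secreted or regulatory proteins. The ventral striatum holds the nucleus accumbens and olfactory tubercle, where dopamine from the midbrain and glutamate from the cortex, hippocampus and amygdala converge on GABA-releasing projection neurons.

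The tissue label was checked on the saline channels. The 18 measured markers of striatal projection neurons, among them the dopamine receptors Drd1 and Drd2 and the phosphodiesterase Pde10a, all had a higher saline level in the ventral striatum than the mean of the other 5 regions, by a median of 3.73 on the log2 scale. Of 10 accumbens and olfactory tubercle markers 8 were higher, by a median of 0.96. All 8 dorsal striatum markers were higher, by a median of 1.53. The check thus shows striatal tissue and does not separate ventral from dorsal striatum. Median net signals on the 2 low-dose arrays were 214 and 55.7 intensity units for treated RNA and 58.4 and 223 for saline RNA, the Cy5 channel being brighter on both. Between 70.1% and 80.0% of spots per channel stood well above background. Before any dye correction the single-array ratios correlated at -0.43 over 24722 genes and other features, which are not independent replicates, and at 0.11 once each gene's mean dye effect over the other 11 array pairs was removed. Over these features the dye effect had an SD of 0.116 and the mean of both arrays an SD of 0.091. The dye effect cancels in that mean, which was used throughout. Each region's arrays lay on a slide of their own, so slide and region cannot be told apart. The ventral striatum was scanned on the same day as the cortex.

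With 1 replicate a group there is no test of the low dose by itself. A gene was called when the mean of both arrays was past 1.5-fold and both arrays had the same sign. Of 24722 features measured, 33 (0.133%) were called. Higher in treated rats were 16 (0.0647%), and 17 (0.0688%) were lower. The 21 called features with a gene symbol, of 12103 measured (0.174%), split into 7 higher and 14 lower, and the other 12 had none. Over all features the median ratio was 0.00 and its 1st and 99th percentiles were -0.24 and 0.21. Among the 33 called features the 2 arrays correlated at 0.93, a value the same-sign rule itself raises. The highest ratio was that of an early response gene, while haemoglobins and genes brighter in cortex than in striatum were lower. Genes with nearly the same ratio in all 6 regions were found on both sides, higher and lower. At the edge of the rule, RT1-CE16 was the last called gene at -0.59, and Vip, Alas2 and Neurod2, at -0.57 each, were the first not called. Centring each array on its median in place of the loess curve gave 14 higher and 11 lower features, a different split from the 16 and 17. With replicate 1 alone, its dye effect removed, 45 features were lower and 16 higher. With replicate 2 alone 25 were lower and 18 higher.

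**Figure D1:**
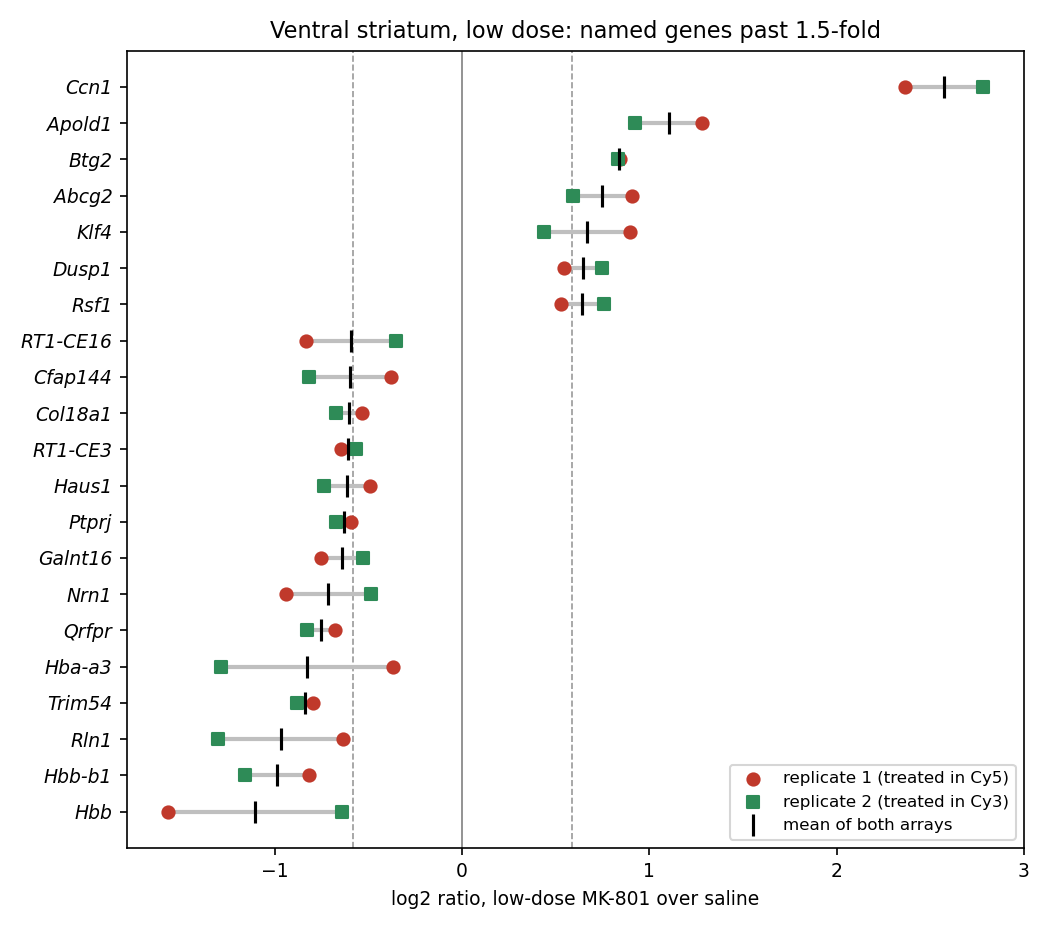
Each row is a called gene with a symbol, and the horizontal axis is the log2 ratio of low-dose MK-801 over saline in the ventral striatum. Circles are replicate 1 (treated RNA in Cy5), squares replicate 2 (treated RNA in Cy3), vertical ticks their mean and dashed lines the 1.5-fold threshold. Ccn1 stands apart at 2.37 and 2.78, and the arrays lie farthest apart for Hbb, at -1.57 and -0.64, and Hba-a3, at -0.37 and -1.29.

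Of the 5 early genes that were called, 4 are shown first by the start of their transcription units, because they were high together. Below are RefSeq promoter windows on the GRCr8 assembly, 250 bases before to 50 bases after the start, written in the direction of transcription, for Ccn1, Apold1, Btg2 and Dusp1. Egr2 and Egr4, early genes that were low, are shown for contrast. The windows of Klf4, which was also called, and of Egr1, which was also low, were searched in the same way and are described but not printed. Capitals mark a cAMP response element (TGACGTCA), its half-site (TGACG, which lies within the full element and was counted on both strands), a TATA motif (TATAAA) or a CArG box, the core of the serum response element.

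Ccn1 (chr2:237225640-237225939, minus strand): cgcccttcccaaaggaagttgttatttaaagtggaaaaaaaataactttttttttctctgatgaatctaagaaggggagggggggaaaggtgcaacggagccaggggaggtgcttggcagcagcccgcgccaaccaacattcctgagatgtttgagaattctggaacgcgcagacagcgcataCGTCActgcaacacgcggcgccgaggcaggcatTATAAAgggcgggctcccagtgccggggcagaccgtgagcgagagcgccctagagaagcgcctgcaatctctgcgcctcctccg
Apold1 (chr4:169552349-169552648, plus strand): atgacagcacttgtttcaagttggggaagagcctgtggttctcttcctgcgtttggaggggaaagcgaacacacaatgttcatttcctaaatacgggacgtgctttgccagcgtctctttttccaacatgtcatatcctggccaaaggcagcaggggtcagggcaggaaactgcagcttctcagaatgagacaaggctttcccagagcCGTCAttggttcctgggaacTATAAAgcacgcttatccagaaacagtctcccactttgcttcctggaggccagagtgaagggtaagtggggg
Btg2 (chr13:48087641-48087940, minus strand): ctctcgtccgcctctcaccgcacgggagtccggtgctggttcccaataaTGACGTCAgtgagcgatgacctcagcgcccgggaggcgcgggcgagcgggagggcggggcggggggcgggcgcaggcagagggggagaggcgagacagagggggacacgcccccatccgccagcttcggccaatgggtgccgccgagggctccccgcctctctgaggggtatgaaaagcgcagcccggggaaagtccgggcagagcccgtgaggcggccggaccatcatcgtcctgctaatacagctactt
Dusp1 (chr10:17184603-17184902, plus strand): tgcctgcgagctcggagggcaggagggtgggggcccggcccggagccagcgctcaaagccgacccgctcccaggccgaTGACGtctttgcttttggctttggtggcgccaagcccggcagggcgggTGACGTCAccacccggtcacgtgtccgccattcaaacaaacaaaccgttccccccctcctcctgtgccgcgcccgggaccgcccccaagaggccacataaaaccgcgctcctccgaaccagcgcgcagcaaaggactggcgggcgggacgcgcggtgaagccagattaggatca
Egr2 (chr20:21054392-21054691, minus strand): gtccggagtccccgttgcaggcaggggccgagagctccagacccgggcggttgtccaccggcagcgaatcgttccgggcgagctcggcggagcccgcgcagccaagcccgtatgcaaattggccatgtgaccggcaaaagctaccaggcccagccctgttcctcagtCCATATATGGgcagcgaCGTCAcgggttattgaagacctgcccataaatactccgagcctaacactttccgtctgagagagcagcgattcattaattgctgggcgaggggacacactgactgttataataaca
Egr4 (chr4:119607768-119608067, minus strand): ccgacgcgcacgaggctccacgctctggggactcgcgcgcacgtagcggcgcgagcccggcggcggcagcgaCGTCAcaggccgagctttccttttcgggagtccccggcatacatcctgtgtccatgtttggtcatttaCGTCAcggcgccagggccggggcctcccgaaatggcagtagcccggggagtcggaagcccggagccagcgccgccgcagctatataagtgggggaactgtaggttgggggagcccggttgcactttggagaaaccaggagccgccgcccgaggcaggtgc

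Btg2 and Dusp1 each held 1 full cAMP response element, at positions -201 and -124 from the start, an element present in 1.83% of all 33469 RefSeq windows of that length. Ccn1 and Apold1 each held 1 half-site, at -67 and -42, and 1 TATA motif, at -34 and -22. Egr2 held 1 CArG box at -83 and 1 half-site at -66, while Egr4 held 2 half-sites, at -178 and -110. Klf4 held neither the full element nor a half-site and had 2 TATA motifs on the opposite strand, at -146 and -78. Egr1 held 2 CArG boxes, at -105 and -83, and 2 half-sites, at -135 and -66. The full element was thus in 2 of the 5 called genes, and half-sites were in high and low genes alike. Half-sites occurred in 21.2%, TATA motifs in 14.2% and CArG boxes in 1.64% of all windows. Of the 9 early genes looked up, 8 matched by symbol and Nr4a3 did not. These matches are letters in a window and were tested against nothing in the arrays.

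Ccn1, which encodes a secreted matrix protein and is an early target of growth factor signalling, had the highest ratio of any named gene. Its normalised log2 intensity was 9.94 and 9.93 in treated rats, against 7.57 and 7.15 in saline rats. The ratio averaged 2.57 ± 0.30 (SD, n = 2 arrays), or 5.96-fold. A second probe for the gene gave 0.92 and 1.13, the same direction at a smaller size. The brighter probe lies at chr2:243811128-243811187 on the rn3 build that the files use.

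Apold1 (listed as Verge), an endothelial early gene linked to vascular permeability, had levels of 11.66 and 11.44 in treated rats and 10.38 and 10.52 in saline rats. Its mean ratio was 1.10 ± 0.25 (SD, n = 2 arrays), or 2.15-fold. Btg2, an antiproliferative regulator of transcription and mRNA decay, had levels of 11.40 and 11.44 in treated rats and 10.56 and 10.61 in saline rats. Its ratios of 0.84 and 0.83 were nearly the same on both arrays. Klf4, a zinc-finger factor that endothelium also uses, had ratios of 0.89 and 0.44 and averaged 0.67 ± 0.32 (SD, n = 2 arrays). Dusp1, a phosphatase that switches off MAP kinases, had ratios of 0.54 and 0.75 and averaged 0.65 ± 0.14 (SD, n = 2 arrays). All 5 genes had both arrays above 0, and the dimmer array of Klf4 and of Dusp1 lay under 1.5-fold. The annotation of exons and untranslated regions for rn3 was not used here. The probes lie at chr4:172152432-172152491 (Apold1), chr13:47041065-47041124 (Btg2), chr5:73452107-73452166 (Klf4) and chr10:16945391-16945710 (Dusp1).

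These genes were picked by the fold rule, so a higher ratio than the uncalled members of their lists was built in. In the list of Klf, Ier, Btg and Gadd45 genes, 2 of 11 measured members were called, against 0.0647% of all features higher, and the list's median was 0.20. Klf2, an endothelial flow-responsive factor, had 0.47 and 0.62, and Ier2, a nuclear early response protein, had 0.60 and 0.47, both just short of the threshold on the mean. Klf6 (0.22) and Gadd45g (0.20) were nearer 0, and the other 5 lay between -0.08 and 0.02. Among 22 synaptic and secreted early effectors only Ccn1 was called, and the median was -0.03. Its relative Ccn2 was at 0.31 and the C/EBP factor Cebpd at 0.33, while the neurosecretory protein Vgf was at -0.33 and Arc, which governs AMPA receptor endocytosis, at -0.25. A second, dimmer probe of Homer1 had -0.67 and -0.34, and 1 of Bdnf averaged -0.30, while those of Tiparp averaged 0.14 and -0.05. Of 10 MAP kinase phosphatases and feedback inhibitors only Dusp1 was called (median 0.03), and of 7 endothelial early genes only Apold1 (median 0.00), with the protease Adamts1 next at 0.34.

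The AP-1 family, whose Fos and Jun proteins are the usual markers of neuronal activation, had no called member among 8 measured, and its median was -0.01. Jun was at 0.53 and 0.20 and averaged 0.36. Atf3, a stress-induced member, was at 0.54 and -0.06, the arrays disagreeing in sign. Fos itself was at -0.21 and 0.10, and Fosb at 0.25 and -0.12, so neither had a direction shared by both arrays.

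The Egr and Nr4a factors lay on the other side of 0. These zinc-finger and orphan nuclear receptor genes depend on synaptic activity in many neurons. None was called, but all 7 measured had a mean below 0, with a median of -0.38, and 4 of them were past 1.3-fold with both arrays below 0, against 0.263% of all features. Egr2 had -0.56 and -0.54, the closest pair of arrays in the list. Nr4a3 had -0.34 and -0.64, with its other probes at 0.11 and -0.51. Egr4 had -0.62 and -0.20, and Egr1 had -0.35 and -0.41. Nr4a1 (-0.19), Nr4a2 (-0.13) and Egr3 (-0.08) were closer to 0. Their summed signal was 52616 and 51935 in treated rats, against 69352 and 63650 in saline rats, and did not overlap. Egr2 and Egr4 were also bright in this tissue, with saline levels 2.05 and 2.69 above the mean of the other 5 regions on the log2 scale.

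**Figure D2:**
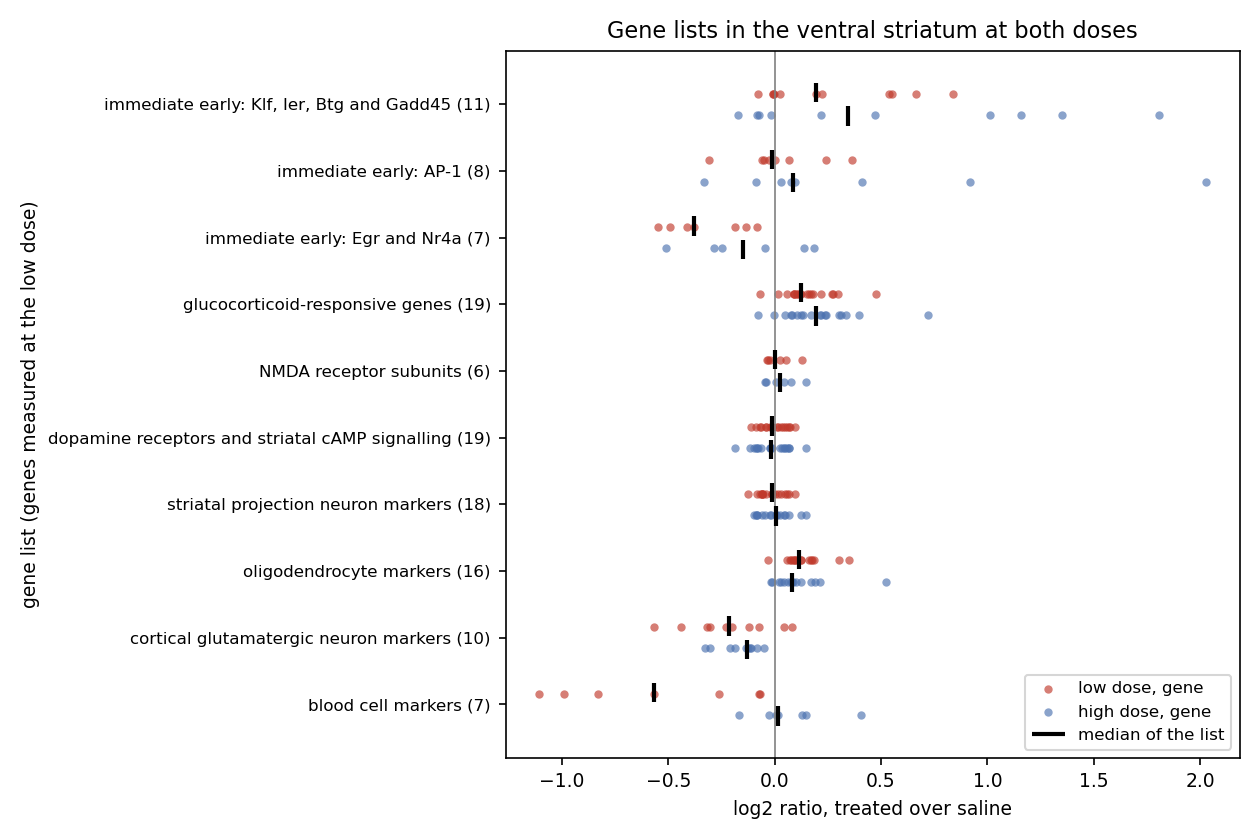
Each row is a gene list with the number of genes measured at the low dose, and the horizontal axis is the log2 ratio of treated over saline in the ventral striatum. Red points are genes at the low dose, blue points the same genes at the high dose and black ticks the medians, which at the low dose run between -0.57 for blood cell markers and 0.20 for the Klf, Ier, Btg and Gadd45 list.

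Ratios of the early genes were graded over regions. Ccn1 was at 2.57 in the ventral striatum, below the cortex at 3.66 and above the amygdala at 1.61, the hippocampus at 0.75, the hypothalamus at 0.65 and the midbrain at -0.04. The ventral striatum was likewise second to the cortex for Apold1 (1.10 against 2.53), Btg2 (0.84 against 1.79) and Klf4 (0.67 against 1.29). For Dusp1 it stood at 0.65, level with the amygdala at 0.65, while the cortex was at 1.01. The midbrain had the lowest value for 4 of these 5 genes, Btg2 being lowest in the hippocampus at 0.17. In limma's test of the ventral striatum against the mean of the other 5 regions, none of Ccn1, Apold1, Btg2 and Dusp1 passed (adjusted p = 0.9999 each), and Klf4 lacked a hypothalamic value and was not tested. The spread of the other regions was wide, with an SD of 1.43 for Ccn1.

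A second kind of called gene had nearly the same ratio everywhere. For 7 of the 21 named genes, each of the other 5 regions was past 1.3-fold in the same direction. Abcg2, an efflux pump of the blood-brain barrier, had 0.91 and 0.59 in the ventral striatum and 0.48 to 0.56 in the others. Rsf1, a chromatin remodelling subunit, had 0.53 and 0.76, with 0.47 to 0.76 in the others. Ptprj, a receptor tyrosine phosphatase, had -0.59 and -0.67, with -0.79 to -0.62 in the others, but its second probe was at -0.17. Galnt16, which starts O-glycosylation, had -0.76 and -0.53, with -0.91 to -0.51 in the others. Haus1, a subunit of the augmin complex of the spindle, had -0.49 and -0.74, with -0.66 to -0.44 in the others, while its second probe gave 0.34, so the probes disagreed in sign. Over the other 5 regions, these genes had an SD between 0.03 for Abcg2 and 0.16 for Galnt16. The remaining 2 of the 7 were class I histocompatibility genes, RT1-CE3 at -0.65 and -0.57 and RT1-CE16 at -0.84 and -0.35, with the other regions between -0.87 and -0.54. Class I genes are near-identical copies that a probe may not separate, so their values are uncertain. They were 2 of 16 in their list, against 0.0688% of all features lower. The list's median was -0.05, and RT1-CE10 was at 0.30. Since all regions came from the same rats, 6 like values do not count as 6 animals. Of the other called genes, Col18a1, a basement membrane collagen, had -0.54 and -0.67, with a second probe at -0.57, while the other regions ran between -0.40 and 0.25. Cfap144, a cilium protein, had -0.38 and -0.82, and the other regions ran between -0.44 and -0.01.

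**Figure D3:**
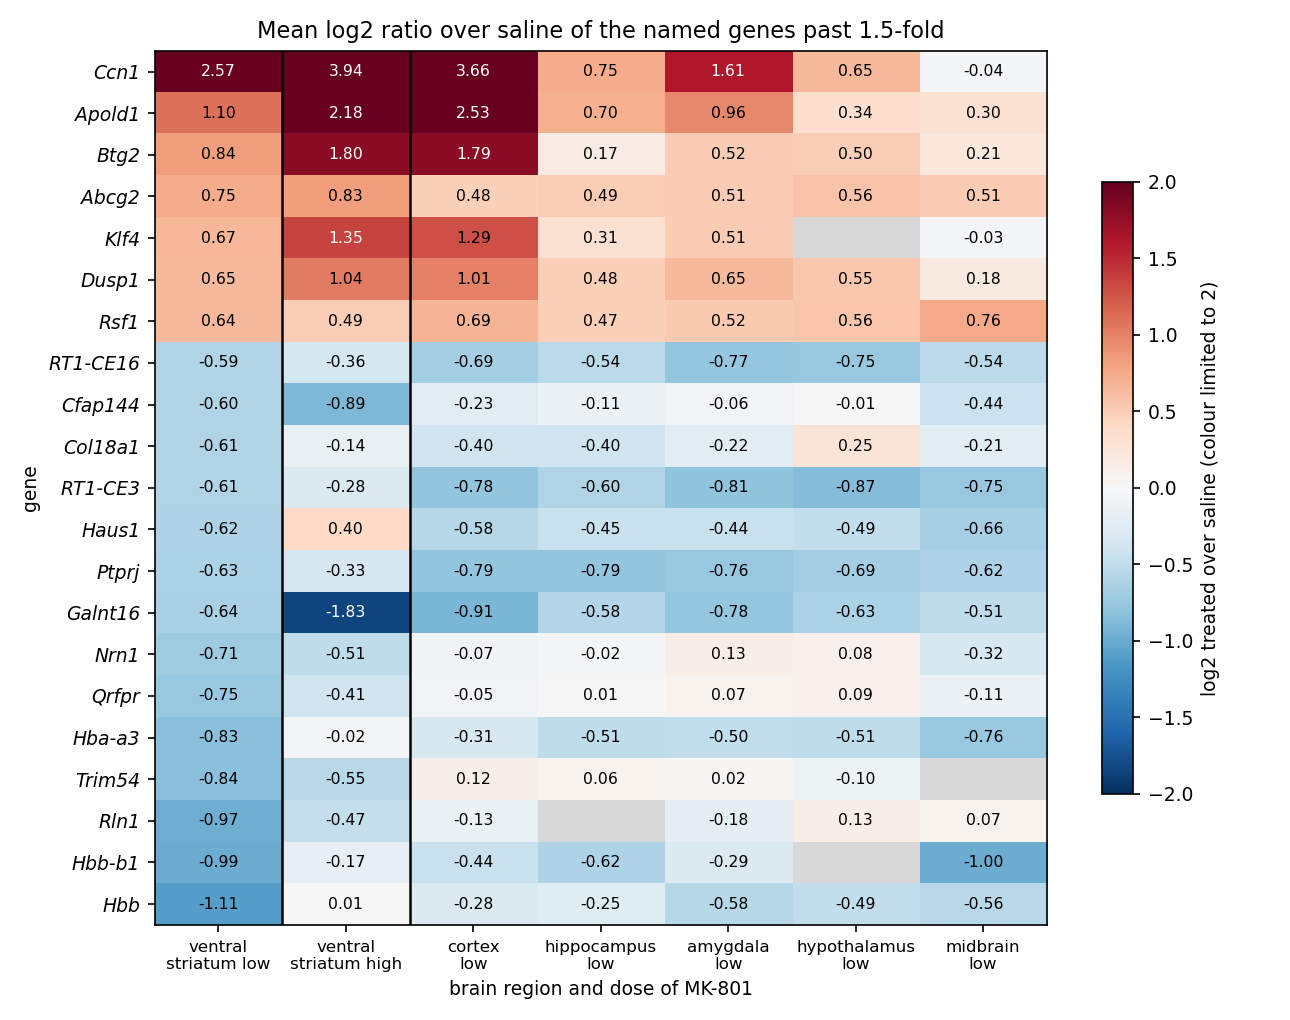
Rows are the 21 called genes with a symbol and columns the regions and doses. Colours and printed values give the mean log2 ratio of treated over saline, and grey cells did not pass the signal filter. Early genes are graded over regions, Galnt16, Ptprj and the RT1 genes are alike in all columns of the low dose, and Rln1, Trim54, Qrfpr and Nrn1 are low in the ventral striatum columns.

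Haemoglobin transcripts were lower in the low-dose ventral striatum, and below 0 in every other region where they were measured. Hbb had -1.57 and -0.64 and averaged -1.11 ± 0.66 (SD, n = 2 arrays), and Hbb-b1 had -0.82 and -1.16 and averaged -0.99 ± 0.24. Hba-a3 had -0.37 and -1.29 and averaged -0.83 ± 0.65. In the other regions Hbb ran between -0.58 and -0.25, Hba-a3 between -0.76 and -0.31, and Hbb-b1 between -1.0 in the midbrain and -0.29, with no hypothalamic value. Globin genes are near-identical copies, so reads of single copies by these probes are uncertain. All 7 measured blood cell markers were below 0, with a median of -0.57, and 3 were called, against 0.0688% of all features lower. Without the filter on dim probes the median was -0.26. Alas2, the haem synthesis enzyme of red cell precursors, was at -0.57, and Slc4a1, the red cell anion exchanger, at -0.26. The platelet genes Pf4 and Ppbp were at -0.07 each. The list's summed signal was 131310 and 94407 in treated rats, against 201440 and 219060 in saline rats. At the low dose the other regions had medians of -0.12 to -0.43 for the list, and in the high-dose ventral striatum it was 0.01. In bulk tissue fewer cells of a type and less RNA per cell cannot be told apart. The part of blood content in other results was not tested.

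A further group comprised genes with a ratio near 0 elsewhere. When the ventral striatum was set against the mean of the other 5 regions with limma (Benjamini-Hochberg adjusted p under 0.05, two-sided), 4 of 21570 features passed (0.0185%), all lower, and 468 had an unadjusted p under 0.05 (2.17%). Trim54, a muscle-type RING finger protein, had -0.80 and -0.88 here and -0.11 to 0.12 in the others, a difference of -0.84 ± 0.09 (SE). Rln1, which encodes the hormone relaxin, had -0.64 and -1.30 and differed by -0.93 ± 0.11 (SE). Qrfpr (listed as Gpr103), the receptor of the appetite peptide QRFP, had -0.68 and -0.83 and differed by -0.75 ± 0.09 (SE). Cyp11b1, the adrenal steroid hydroxylase, had -0.50 and -0.51, under the 1.5-fold rule, and differed by -0.59 ± 0.07 (SE). The adjusted p was 0.032 for each. Rln1 in the hippocampus and Trim54 in the midbrain were too dim for the signal filter, yet those values entered the fit. Saline levels elsewhere were low too: 7.32 and 7.44 for Trim54 in the hippocampus and hypothalamus, and 7.055 for Rln1 in the hypothalamus. For Cyp11b1 they were 7.47, 7.46 and 7.28 in the hippocampus, hypothalamus and midbrain. In the ventral striatum they were 8.01, 8.07 and 7.51 for Trim54, Rln1 and Cyp11b1. The offset compresses the ratios of dim probes. Vip, a peptide of cortical interneurons, did not pass, at -0.56 (adjusted p = 0.061), nor did Hbb at -0.68 (adjusted p = 0.361) and Nrn1, a plasticity protein of excitatory neurons, at -0.68 (adjusted p = 0.540). By adjusted p, the somatostatin receptor Sstr3, at -0.39, and Adra1d, at -0.45, lay between Vip and Nrn1 as well.

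The calls of the 4 genes changed with the setting more than the differences did. Without the hippocampus, or without the hypothalamus, none of the 4 passed, with adjusted p of 0.128 for each in the first case and 0.0588 to 0.133 in the second. Leaving out a region also takes 1 of the 4 residual degrees of freedom. Without the cortex, Trim54, Rln1 and Qrfpr kept their calls and Cyp11b1 did not (adjusted p = 0.112), nor did Cyp11b1 without the midbrain (adjusted p = 0.0578). With median centring none of the 4 passed (adjusted p of 0.16 to 0.596), and with the scanner software's processed signals Rln1 and Trim54 did not (adjusted p of 0.935 and 0.9999). Under all 13 alternatives run, the difference was no nearer 0 than -0.84 for Rln1, -0.77 for Trim54, -0.70 for Qrfpr and -0.58 for Cyp11b1. With scan day as a block none of the 4 passed (adjusted p of 0.167 to 0.326), and within the day shared with the cortex the ventral striatum minus the cortex came to -0.96 for Trim54, -0.84 for Rln1, -0.70 for Qrfpr and -0.64 for Cyp11b1. The probes lie at chr6:25222636-25224823 (Trim54), chr1:233164743-233164802 (Rln1), chr2:122622066-122622125 (Qrfpr) and chr7:113012000-113012059 (Cyp11b1) on rn3.

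All 4 genes, and Nrn1 and Vip, had lower saline levels in the ventral striatum than in the cortex. The cortex exceeded it by 3.87 for Cyp11b1, 3.84 for Vip, 3.28 for Nrn1, 2.31 for Rln1, 2.23 for Trim54 and 0.53 for Qrfpr on the log2 scale. The saline level of Qrfpr was 7.69 in the ventral striatum, against 8.22 in the cortex and 8.80 in the amygdala, where it was brightest. The cortex was not the only bright region for most of the others. Amygdala levels were 10.20 for Trim54, 9.89 for Rln1 and 13.18 for Vip, against 10.24, 10.38 and 13.85 in the cortex. Nrn1 was at 11.92 or more in every region but the ventral striatum. Cyp11b1 was at 11.38 in the cortex and 8.89 in the amygdala. The list of cortical glutamatergic neuron markers had a median of -0.21, with 8 of 10 measured members below 0 and none called. The median was -0.11 with replicate 1 alone, its dye effect removed, and -0.23 with replicate 2 alone. Neurod2, a factor of cortical excitatory neurons, had -0.67 and -0.46. Cux2, a factor of upper cortical layers, had -0.26 and -0.62, with a second probe at 0.03, and the pentraxin Nptx1 had -0.60 and -0.03. The list's summed signal was 4614 and 5104 in treated rats, against 6546 and 5377 in saline rats. Its part in the results for the 4 genes was not tested.

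A wider set, chosen after these values were seen, held the 71 genes with at least 4-fold more signal in saline cortex than in saline ventral striatum. Of them 65 (91.5%) were below 0 in the low-dose ventral striatum, with a median of -0.18, against 49.5% of all genes with a symbol. On single arrays, without dye correction, 49 were below 0 on replicate 1 and 62 on replicate 2. The lowest were Rln1 and Trim54, followed by Nrn1, Vip, Neurod2, Cyp11b1 at -0.50, the adrenergic receptor Adra1d at -0.45 and the peptide Grp at -0.44. The same set had medians of -0.03 to 0.01 in the other regions at the low dose, and -0.12 in the high-dose ventral striatum, where 59 were below 0. At a minimum of 8-fold the set shrank to 11 genes with a median of -0.44, and at 2-fold it grew to 412 with a median of -0.06. The 92 genes brighter in saline ventral striatum by the same margin had a median of 0.00, with 44 below 0. No test was made on these sets, and each ratio in them shares the saline RNA that chose them.

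**Figure D4:**
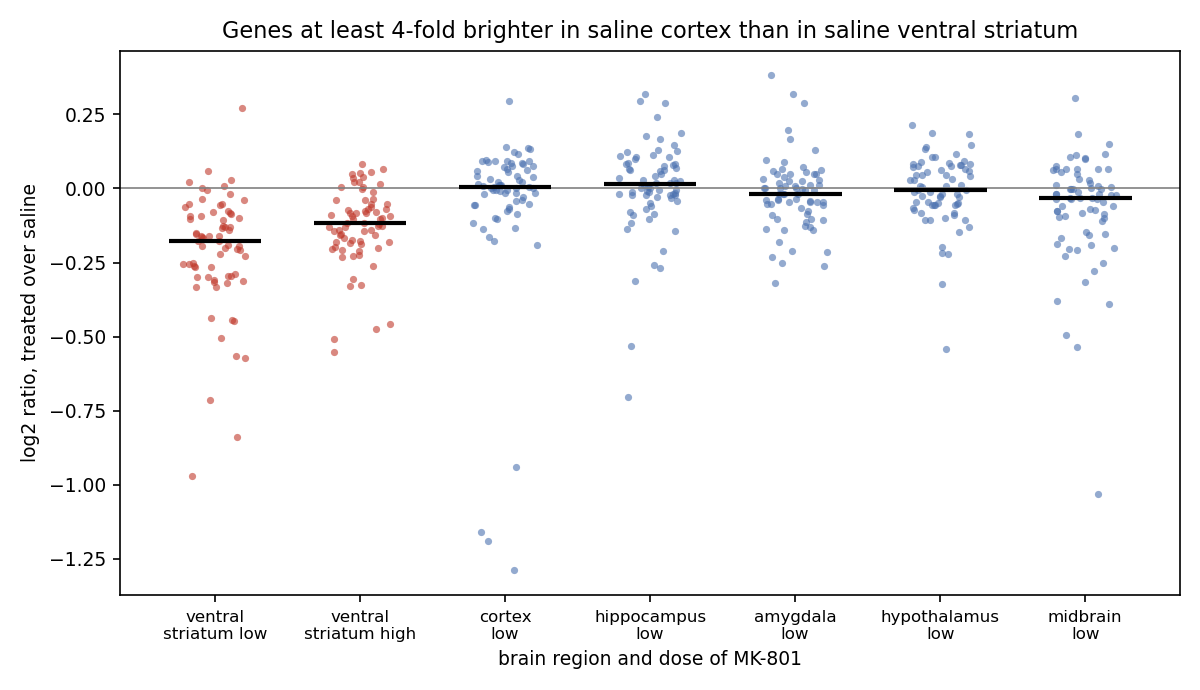
Points are the 71 genes at least 4-fold brighter in saline cortex than in saline ventral striatum, bars their medians and the vertical axis the log2 ratio of treated over saline in each region and dose. The ventral striatum has medians of -0.18 at the low and -0.12 at the high dose, and the other regions lie between -0.03 and 0.01.

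The transcripts of the drug's target and of the striatal projection neurons stayed close to 0 on the mean of both arrays, none of them being called. Grin1, the obligatory NMDA receptor subunit, had 0.13 and -0.20, Grin2a 0.12 and -0.01, and Grin2b -0.14 and 0.08, so their arrays had opposite signs. The 6 measured NMDA receptor subunits had a median of 0.00 and a highest value of 0.13 for Grin3a. The 11 AMPA and kainate subunits had a median of -0.02, and the 7 metabotropic receptors and the 11 GABA-A subunits of -0.04 each. Of 19 genes of dopamine receptors and striatal cAMP signalling, the median was -0.01 and Drd3 was lowest at -0.11. Drd1 was at -0.07, Drd2 at -0.01 and the phosphatase inhibitor Ppp1r1b at 0.07, but single arrays lay farther from 0, with opposite signs. They were at -0.19 and 0.05 for Drd1, -0.31 and 0.28 for Drd2, and -0.49 and 0.62 for Ppp1r1b. The 18 projection neuron markers had a median of -0.01, with the factor Bcl11b lowest at -0.13. Among 15 opioid and striatal neuropeptide genes (median -0.05), Vip and Crh, at -0.57 and -0.40, were past 1.3-fold, and Cartpt, an accumbens peptide, was at -0.28. In the other regions Cartpt ran between 0.25 and 0.99, a difference of -0.805 that did not pass the region test. At the high dose it was at -0.44 in the ventral striatum.

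Several further lists leaned to 1 side of 0 with none called, and 3 of them are given first. Of 19 glucocorticoid-responsive genes 18 were above 0, with a median of 0.12, led by the kinase Sgk1 at 0.41 and 0.55 and the kinase Map3k6 at 0.28. The other regions had medians of 0.06 to 0.18 for this list, so the ventral striatum lay inside their range. Of 16 oligodendrocyte markers 15 were above 0, with a median of 0.11 and Aspa, an aspartoacylase, highest at 0.35. Microglial markers were above 0 for 15 of 16, with a median of 0.07. A lean was not particular to these 3 lists. Of 12 hypothalamic and septal markers 10 were below 0, as were 8 of 10 neuroblast and subventricular markers. Among 17 ribosomal protein genes 13 were above 0. Of 19 interferon-stimulated genes 6 were above and 13 below 0, with a median of -0.07, and the antiviral Rsad2 was lowest at -0.42, with a second, dimmer probe at 0.00. In the heat shock list 4 were above and 11 below 0, with a median of -0.04. The inducible chaperone Hspa1a had -0.28 and -0.59, and its second probe had -0.45 and 0.18, the arrays disagreeing in sign. Of the meningeal markers 9 were above and 3 below 0, with a median of 0.04 here, against -0.97 in the cortex and -0.53 in the hippocampus.

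Several early genes had higher ratios at the high dose. Both doses were read against saline RNA of the region, which they may share, and a gene was called when the difference was past 1.5-fold and all 4 differences between arrays had its sign. Of 22856 features measured at both doses 32 (0.14%) were called, 17 higher (0.0744%) and 15 lower (0.0656%) at the high dose. Median centring gave 9 higher and 23 lower, and the scanner software's processed signals 129 and 75, so the split depends on the scaling. Atf3 differed most, at 0.24 for the low and 2.03 for the high dose (2.24 and 1.82 on the high-dose arrays). Ccn1 was at 2.57 and 3.94, Apold1 at 1.10 and 2.18, and Btg2 at 0.84 and 1.80, low dose first. Klf4 was at 0.67 and 1.35, and Dusp1, at 0.65 and 1.04, was not called for the dose. Ier2 (0.54 and 1.16), Klf2 (0.55 and 1.01) and Jun (0.36 and 0.92) had higher ratios at the high dose as well.

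The Egr and Nr4a list had a median of -0.38 at the low and -0.15 at the high dose. Egr2 was at -0.55 and -0.51, low dose first, and Nr4a1 at -0.19 and 0.19. Hbb, at -1.11 and 0.01, and Hbb-b1, at -0.99 and -0.17, were among the 17 called higher, as were Haus1, at -0.62 and 0.40, and the peptide Oxt, at -0.20 and 0.55. Oxt was dim in this tissue, with saline levels of 6.93 and 7.02 on the low-dose arrays, so its ratios are uncertain. The second probe of Haus1 ran the other way, at 0.34 and -0.08. Lower at the high dose were Galnt16, at -0.64 and -1.83, and P3h3, a collagen prolyl hydroxylase, at 0.50 and -0.63. Its second probe was at 0.04 and 0.05. Pyroxd2, a mitochondrial oxidoreductase-like protein, was at 0.56 and -0.24, and C1qtnf9, a secreted adipokine, at 0.49 and -0.20. Sh2d5 was at -0.03 and -0.87, but its high-dose arrays, at -0.23 and -1.50, were far apart. Rln1, Trim54, Qrfpr and Cyp11b1 were below 0 at both doses, with high-dose values of -0.47, -0.55, -0.41 and -0.46. Whether the dose difference in the ventral striatum departs from that in the other 5 regions was tested with limma. None of 18957 features passed, and 548 had an unadjusted p under 0.05 (2.89%).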

How the data were processed

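Per the file headers, the scanner files of the deposited series hold spot intensity on a linear scale as mean signals with local background, and log10 ratios of Cy5 over Cy3, written by Agilent Feature Extraction 9.5.3.1, which the submitters' processing notes also name. The value table the authors deposited is log10 of treated over saline, and after turning the swapped arrays all of them (100%) matched the scanner software's processed ratio to 0.01. Its column medians for the low-dose ventral striatum were -0.01 and 0.01. All its columns belonged to a sample (0 did not). Later steps of the authors are not given in the sources used here.

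Background correction of the mean signals used normexp (offset 50), followed by loess within arrays with control spots given weight 0. The tools were limma (version 3.58.1), R (version 4.3.3) and data.table (version 1.17.8). Spots the scanner software marked as outliers (348 and 297 on the 2 arrays) were left out, and saturated spots (2 and 0) were kept. A feature was measured where its probe stood well above background in 1 channel on both arrays. The 41012 probes gave 35525 features, 15541 with a symbol, each represented by its brightest probe. Names were updated through RefSeq's GRCr8 tables: 10735 probes matched by systematic accession, 126 by another accession, 5536 by symbol and 3703 by synonym, and 20912 kept the file's name. Probe positions are those in the files, on rn3. Channel levels were scaled between arrays with Aquantile. The number of arrays limits the precision.

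Named were the 12 highest and 12 lowest called genes with a symbol, called members and up to 4 others of each of 39 lists, genes passing the region test, the 8 highest and 8 lowest dose differences, and the NMDA receptor subunits Grin1, Grin2a and Grin2b. Cfap144, RT1-CE16, further members of lists, Sstr3, Adra1d, Grp and genes at the edge of the fold were named after their values were seen. Some genes the rule selects are not reported here. The genes, lists and tests were chosen with earlier results of these data known. The region test was limma on 6 region values, tested on simulated data. Promoters were searched in Python 3.11.15 and figures drawn with matplotlib 3.10.9.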

Additional observations from a re-analysis of the deposited data

Results flagged for a closer look

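For 4 genes the low-dose ratio in the ventral striatum differed from the mean of the other 5 regions by limma's test of the difference itself (adjusted p = 0.032 each). The difference was -0.93 for Rln1, -0.84 for Trim54, -0.75 for Qrfpr and -0.59 for Cyp11b1, and both arrays were below 0 for each. The high-dose arrays of the same region were below 0 as well for these genes, and may share the saline RNA. None of the 4 passed with scan day as a block (adjusted p of 0.167 to 0.326) or with median centring (0.16 to 0.596), and Rln1 and Trim54 did not with processed signals (0.935 and 0.9999). Within the scan day shared with the cortex, the ventral striatum minus the cortex came to between -0.96 and -0.64 for these genes. The part of cortical transcripts was not tested, and slide and region cannot be told apart.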

How the results depend on the processing

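All 21 named calls kept their sign under every alternative run. They all kept the call with an offset of 16, processed signals, the deposited table, no signal filter, a stricter filter and arrays counted as replicates. Median centring lost 7 of the 21 (Klf4, Hbb-b1, Hba-a3, Haus1, Ptprj, RT1-CE3 and RT1-CE16). The means of 5 of these stayed past 1.5-fold (Klf4 0.69, Hbb-b1 -0.94, Hba-a3 -0.79, Ptprj -0.60 and Haus1 -0.60), but their arrays no longer had 1 sign, and the RT1 genes were at -0.58 and -0.56. A mean over probes lost Haus1 and Ptprj. Without replicate 1, RT1-CE16 was no longer past 1.5-fold. Without replicate 2, Rsf1, Hba-a3, Col18a1, RT1-CE3 and Cfap144 were not. Counts at the low dose were 64 higher and 80 lower with processed signals, 62 and 78 with the deposited table, 14 and 11 with median centring, 46 and 65 at 1.3-fold, and 5 and 1 at 2-fold. Leaving out a replicate gave 16 to 18 higher and 25 to 45 lower. The region test passed 2 features with processed signals and with the deposited table, 0 with median centring, 1 with scan day as a block, and 0 to 4 with a region left out. Counts of the dose difference were 26 higher and 24 lower at an offset of 16, 129 and 75 with processed signals, 127 and 70 with the deposited table, 9 and 23 with median centring, 66 and 48 at 1.3-fold, and 5 and 4 at 2-fold. Leaving out a replicate gave 20 to 25 higher and 21 to 23 lower. The dose difference between regions passed 5 at an offset of 16. The saline level of striatal markers was 4.21 above the other regions with processed signals, and 3.50 to 3.86 with a replicate left out. The median of the cortex-bright genes, examined after seeing the data, ran between -0.25 and -0.13 under processed signals, median centring and single arrays. The median of the blood cell markers ran between -0.70 with both channels required above background and -0.26 without the filter, and that of the cortical glutamatergic markers between -0.32 with the deposited table and -0.11 without replicate 2. The causes of these shifts were not tested. Each ratio is already the difference between treated and saline RNA on 1 array. No paired analysis was possible because, beyond that, replicate numbers mark only the dye orientation, and a block on them would take up the dye effect. Dim probes limit what ratios show, since the offset compresses them.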

Other observations

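Of the endothelial and mural markers only Abcg2, 1 of 16 measured, was called higher at the low dose, against 0.0647% of all features. The list had a median of 0.03, with the efflux pump Abcb1a at 0.09, the VEGF receptor Kdr at -0.30 and -0.21, and the pericyte gene Rgs5 at 0.19 and 0.10. Of the choroid plexus and ependymal markers, Ttr, the thyroxine carrier, had 0.64 and 0.20 and averaged 0.42, while the factor Otx2 had -0.38 and -0.42, with a second probe at -0.13 and 0.12. Clock genes had a median of 0.02 over 17 genes, with Bmal1 lowest at -0.20. Genes of oxidative phosphorylation lay between -0.06 and 0.12, and those of ribosomal proteins between -0.05 and 0.11. Counting arrays as replicates, with a dye effect per gene, limma passed 181 of 24722 features (79 higher, 102 lower), among them all 33 called by fold, but that fit treats both arrays of a pair as separate animals.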
